A study of Mus musculus with 10 samples.

Results

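Nascent transcription of 8 genes that are known as direct targets of Wnt/β-catenin signaling was followed during Xist induction in mouse embryonic stem cells (ESCs). The genes were Axin2, Nkd1, Notum, Tcf7, Lef1, Sp5, T and Cdx1. They were chosen by name, 8 of the 24386 genes that each sample lists, and all 8 passed the filter on low counts. All samples were wild-type TX1072 cells, a female hybrid ESC line with 1 set of chromosomes from C57BL/6 (B6) and 1 from Mus musculus castaneus (Cast), in which doxycycline (DOX) drives Xist from the B6 X chromosome. Newly made RNA was labeled with a short pulse of 4-thiouridine, enriched and sequenced (TT-seq) after 0, 4, 8, 12 and 24 h of DOX, with 2 replicates at each time, 10 samples in all. Every sample, also those at 0 h, was grown in serum with LIF, the MEK inhibitor PD0325901 and the GSK3 inhibitor CHIR99021. Each DOX sample differed from those at 0 h in DOX, in Xist and in hours of culture, which cannot be told apart here.

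In canonical Wnt signaling, a destruction complex built on Axin and APC lets GSK3 and casein kinase 1 mark β-catenin for breakdown. When Wnt ligands engage Frizzled and LRP receptors, or when GSK3 is inhibited as by CHIR99021, β-catenin builds up, enters the nucleus and binds DNA through the HMG-box factors of the TCF/LEF family. Many genes that it turns on encode feedback inhibitors of the pathway or TCF/LEF factors themselves, and in ESCs the pathway is known for helping to hold the naive state.

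The core letters of the DNA element that TCF/LEF factors bind are CTTTG, or CAAAG read on the other strand, and the promoter windows of RefSeq (build GRCm38.p6, 250 bases before to 50 bases after the gene's start) were searched for them on both strands. Windows of 6 of the 8 genes were searched, and none of Notum and Cdx1. The windows of Sp5 at chr2:70474673-70474972 (+), T at chr17:8434173-8434472 (+) and Lef1 at chr3:131110047-131110346 (+) are printed 5′ to 3′ with each core in capitals, since they hold it, and that of Axin2 at chr11:108920099-108920398 (+) is printed as that of a common readout of Wnt signaling, which holds none.
Sp5: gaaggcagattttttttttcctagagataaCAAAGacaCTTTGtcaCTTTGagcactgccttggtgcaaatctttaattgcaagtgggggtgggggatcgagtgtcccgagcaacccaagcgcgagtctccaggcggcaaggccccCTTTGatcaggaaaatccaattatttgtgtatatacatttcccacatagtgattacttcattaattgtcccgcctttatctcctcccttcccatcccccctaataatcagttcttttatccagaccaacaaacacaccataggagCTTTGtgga
T: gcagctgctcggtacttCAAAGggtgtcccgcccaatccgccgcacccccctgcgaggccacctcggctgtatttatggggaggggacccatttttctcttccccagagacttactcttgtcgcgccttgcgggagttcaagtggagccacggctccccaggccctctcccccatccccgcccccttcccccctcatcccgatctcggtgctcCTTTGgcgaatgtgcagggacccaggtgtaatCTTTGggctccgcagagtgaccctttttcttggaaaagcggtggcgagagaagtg
Lef1: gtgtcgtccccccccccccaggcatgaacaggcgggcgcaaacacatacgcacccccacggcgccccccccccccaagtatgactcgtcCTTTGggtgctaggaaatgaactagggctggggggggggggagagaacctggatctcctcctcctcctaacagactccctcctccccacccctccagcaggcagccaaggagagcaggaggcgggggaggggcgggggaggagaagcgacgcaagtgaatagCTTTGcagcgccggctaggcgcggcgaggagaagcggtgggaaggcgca
Axin2: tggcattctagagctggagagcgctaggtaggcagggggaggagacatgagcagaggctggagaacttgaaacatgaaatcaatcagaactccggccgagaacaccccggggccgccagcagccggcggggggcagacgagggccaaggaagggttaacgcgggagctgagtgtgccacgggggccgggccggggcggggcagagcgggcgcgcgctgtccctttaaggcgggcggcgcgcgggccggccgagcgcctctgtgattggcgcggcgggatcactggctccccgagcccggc

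The Sp5 window held 5 cores, whose leftmost bases lay at -220, -212, -204, -104 and 41, counted in bases from the first base of the gene. The core at -104 was the start of the longer element CTTTGAT, searched on both strands, which includes the core. None of the other member windows held it. The T window held 3 cores, at -233, -37 and -5, and the printed Lef1 window held 2, at -161 and 1. No core lay in the windows of Axin2, Tcf7 and Nkd1, the last of which begins its gene 6289 bases from the start in the files. CTTTG or its reverse complement stood in 53.9% of all 32851 windows and CTTTGAT in 3.73%, so a core alone is common, and a match is a run of letters and not a shown binding site.

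The genes lie on autosomes, away from Xist. In mm10 coordinates, as the files give them, Axin2 spans chr11:108920349-108950781 (+), Notum chr11:120653789-120660837 (-), Nkd1 chr8:88521344-88594887 (+), Tcf7 chr11:52252283-52283014 (-), Lef1 chr3:131110297-131224357 (+), Sp5 chr2:70474923-70477726 (+) and T chr17:8434423-8442496 (+). All are annotated as protein coding, and reads were counted over the whole gene, introns included. None overlaps another gene of the deposited tables. In the GENCODE annotation, Nkd1, Tcf7 and Lef1 each share strand and bases with a further gene model, Gm45496, Gm26551 and Gm42449, whose reads could not be told apart from theirs.

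The samples held between 18809046 and 22274929 counts, of which 49.2% to 52.8% could be assigned to an allele. Xist had 32 and 31 counts at 0 h and between 6348 and 14211 in the DOX samples, low without DOX and high with it in every library. The cells carried the transcripts of naive ESCs, with a summed level of 2810 to 3170 CPM (read counts scaled to a common library size with TMM factors) for 10 naive markers. One of these markers, Sox2, was listed at 0 in every sample. Whether a 0 in every sample, of Sox2 or of another gene, is a lack of transcription or comes from how reads were counted was not tested. Summed levels were 28.5 to 37.5 CPM for 4 primed epiblast markers, 1.47 to 3.66 for 6 primitive streak and mesoderm markers, 2.76 to 4.07 for 5 primitive endoderm markers, 4.22 to 7.35 for 5 trophoblast markers, 0.0449 to 0.701 for 4 neural markers with Sox1 at 0, and 2.93 to 5.90 for 5 fibroblast markers with Lum and Postn at 0. Of these markers, Otx2, a primed epiblast factor, was the only 1 called over time in edgeR's filtered fit without a replicate block. It fell from 5.98 ± 0.0842 to 3.34 ± 0.0358 CPM (SD, n = 2) at 24 h, and its part in the results that follow was not tested. With the replicate number added to the fit as a block, Cdx2 of the trophoblast list, also listed below as a Wnt target, was called lower at 24 h. Calls of the other markers with the block were not taken. The sum of the primed list was 35.0 and 35.6 CPM at 0 h and between 33.3 and 37.5 at 24 h, and Zic2 stood at 26.0 ± 0.614 CPM at 0 h and 29.0 ± 2.98 at 24 h. All values are from cell populations, in which fewer cells transcribing a gene and less RNA per cell cannot be told apart, and the p-values measure only the spread between these samples. The labels do not say whether the replicates are separate cultures, while the study calls its duplicates biological.

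All 8 genes were transcribed before DOX. Per kilobase of gene, Sp5 had the highest level at 0 h, 5.05 ± 0.340 CPM per kb (SD, n = 2). Axin2 followed with 2.53 ± 0.0258 CPM per kb and Notum with 2.19 ± 0.437, a difference smaller than the SD of Notum. Cdx1 stood at 1.37 ± 0.134 and Lef1 at 1.29 ± 0.0166 CPM per kb, again closer than the SD of the first. Tcf7 had 1.163 ± 0.122, T 0.980 ± 0.0559 and Nkd1, the lowest, 0.126 ± 0.0129 CPM per kb.

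Of the 8 genes, edgeR's filtered fit of all samples without a replicate block called only Notum (the plot of nascent counts by sample). Notum fell over the time course, while Lef1 and Cdx1 passed under some of the alternatives given below. Measured with edgeR's quasi-likelihood test across 14525 genes with Benjamini-Hochberg adjustment, 0 of the 8 were called at an adjusted p under 0.05 at 4, 8, 12 or 24 h against 0 h, where 0.0138%, 0.193%, 0.95% and 1.85% of all genes were called. At an unadjusted p under 0.05, 0 members stood out at 4 h, T at 8 h, Cdx1, Lef1 and T at 12 h, and Lef1, Notum and T at 24 h, against 2.09%, 4.06%, 11.5% and 10.3% of all genes. DESeq2 called 1 member at 12 h and 0 at the other times, and limma-voom called 0 at each. Shares of all genes were not taken for these tools, so their counts have no background beside them. The median log2 fold change of the 8 genes was 0.01, -0.15, -0.20 and -0.17 at the 4 times, beside medians of all genes of 0.00047, -0.00016, -0.0042 and 0.0084. With a linear term in hours, Notum was called lower, and 3.15% of all genes were called in either direction.

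**Figure D1:**
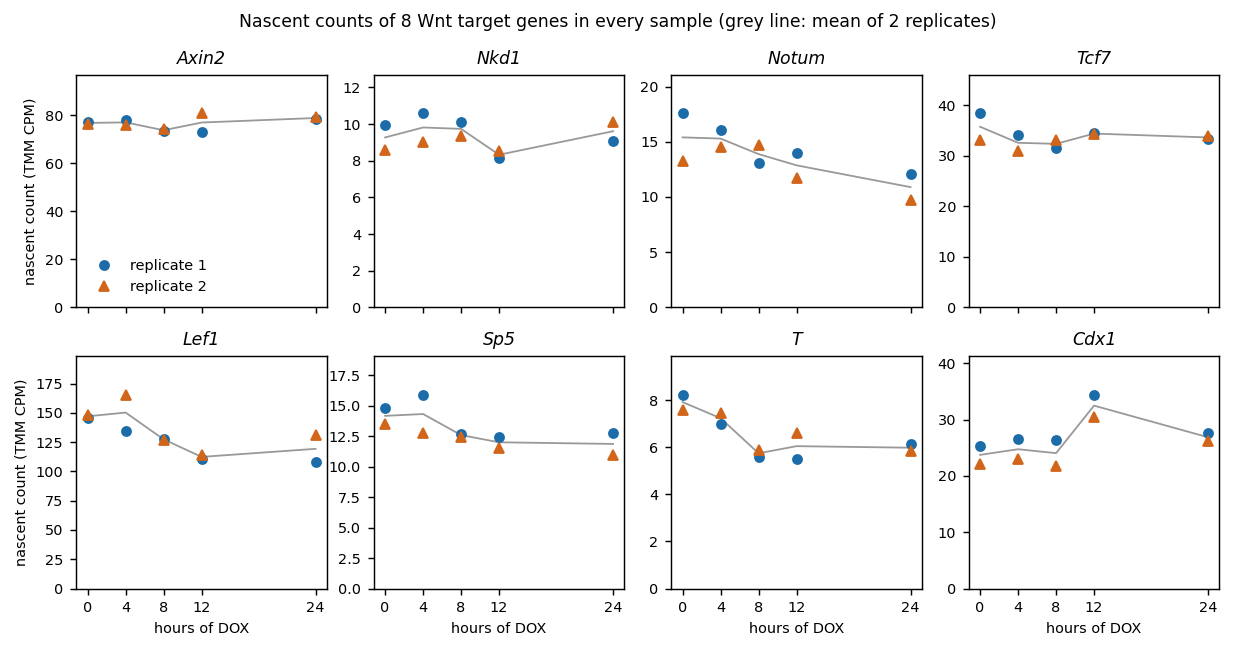
Nascent counts of the 8 Wnt target genes in every sample, as TMM-scaled CPM on axes that start at 0, against hours of DOX. Circles are replicate 1, triangles replicate 2 and the grey line joins the means of the 2 replicates. Notum and T ended below their 0 h samples at 24 h, Lef1 stood at 111 and 114 CPM at 12 h against 146 and 148 at 0 h, Cdx1 was highest at 12 h, and the points of Axin2, Nkd1 and Tcf7 lay near their 0 h levels.

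The replicate numbers of the labels paired the samples for total counts, and when the replicate number was added to the fit as a block, more genes passed. Under the block, 2 of the 8 members were called at 12 h (Cdx1 higher, Lef1 lower), 2 at 24 h (Lef1 and Notum lower) and 2 in the linear term (Lef1 and Notum lower), against 4.94%, 5.32% and 5.67% of all genes. With the block and adjustment over genes outside the X chromosome alone, chosen after seeing the data because Xist acts on X-linked genes, these counts of members stayed at 2, 2 and 2, against 1.93%, 2.29% and 2.64% of those genes.

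Axin2, Nkd1 and Notum encode feedback inhibitors, and among them Notum fell. Notum is a secreted enzyme that removes the lipid from Wnt ligands and so inactivates them. Its nascent level was 17.6 and 13.2 CPM in the 0 h samples, 16.1 and 14.5 after 4 h, 13.0 and 14.7 after 8 h, 14.0 and 11.7 after 12 h, and 12.0 and 9.73 after 24 h. Both 24 h samples lay below both 0 h samples, while the groups at 4, 8 and 12 h overlapped those at 0 h. Of all tested genes, 17.3% lay below in this way at 24 h and 19.0% above. No such share was taken at the other times, here and for the genes that follow. The linear term gave a log2 change of -0.54 over 24 h (SE 0.135, edgeR adjusted p = 0.0292), a fold of 0.690, and -0.53 with the block (adjusted p = 0.00369). At 24 h against 0 h the log2 fold change was -0.50 (SE 0.158, edgeR adjusted p = 0.175), and -0.50 with the block (SE 0.123, adjusted p = 0.00826), and it ran from -0.71 to -0.28 across the alternatives. The linear term of Notum lost its call without replicate 1 at 0 h (adjusted p = 0.117), without replicate 1 at 4 h (0.0647), without replicate 2 at 24 h (0.289) and with adjustment outside the X chromosome alone and no block (0.0709), where 0.899% of those genes were called.

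Axin2, a scaffold of the destruction complex and a feedback inhibitor of β-catenin, held its level. It had 77.4 and 76.3 CPM at 0 h, 78.0 and 76.2 after 4 h, 73.3 and 74.3 after 8 h, 73.2 and 80.9 after 12 h, and 78.6 and 79.3 after 24 h. Its 8 h samples lay below and its 24 h samples above those at 0 h, by amounts far smaller than the fall of Notum. At 24 h its log2 fold change was 0.04 with a 95% interval of -0.12 to 0.20 (edgeR adjusted p = 0.933), and at 8 h -0.06 with an interval of -0.22 to 0.10.

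Nkd1, which binds Dishevelled and dampens the signal, was transcribed at a low level. It had 9.94 and 8.60 CPM at 0 h, 10.6 and 9.04 after 4 h, 10.1 and 9.36 after 8 h, 8.15 and 8.51 after 12 h, and 9.09 and 10.1 after 24 h. The 12 h samples lay below both 0 h samples, with no share of all genes taken at 12 h, and those of the other times overlapped them. Its log2 fold change of 0.05 at 24 h had a 95% interval of -0.25 to 0.35, with 166 to 226 reads behind each value.

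Tcf7 and Lef1 encode HMG-box factors through which β-catenin acts on DNA. Lef1 had 146 and 148 CPM at 0 h, 135 and 166 after 4 h, 128 and 127 after 8 h, 111 and 114 after 12 h, and 108 and 131 after 24 h. From 8 h on, all 6 samples lay below both 0 h samples. At 24 h alone 17.3% of all tested genes did so, and no share was taken for 8 h and 12 h. The log2 fold change was -0.39 at 12 h (SE 0.100, edgeR adjusted p = 0.100), which the block turned into a call (-0.39, SE 0.0744, adjusted p = 0.00068). At 24 h it was -0.30 (SE 0.0999, edgeR adjusted p = 0.210) and -0.31 with the block (adjusted p = 0.00693). The linear term gave -0.36 over 24 h (SE 0.107, edgeR adjusted p = 0.0759), and adjusted p = 0.0102 with the block. Per hour the slope was -0.015, and it was -0.024 without replicate 2 at 24 h, the sample at 131 CPM (adjusted p = 0.00661). Lef1 had 2147 to 3244 reads in each sample, the most of the 8 genes. The 12 h difference also passed with DESeq2 (adjusted p = 0.0322) and without replicate 1 or replicate 2 at 4 h (edgeR adjusted p = 0.0455 and 0.0499).

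Tcf7 had 38.4 and 33.1 CPM at 0 h, 34.1 and 31.0 after 4 h, 31.5 and 33.2 after 8 h, 34.4 and 34.4 after 12 h, and 33.3 and 34.0 after 24 h. Its samples at every DOX time overlapped those at 0 h. At 24 h the log2 fold change was -0.09, with a 95% interval of -0.29 to 0.12, and at 12 h -0.06, with an interval of -0.26 to 0.15. Whether Lef1 and Tcf7 differed in their change was not tested.

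**Figure D2:**
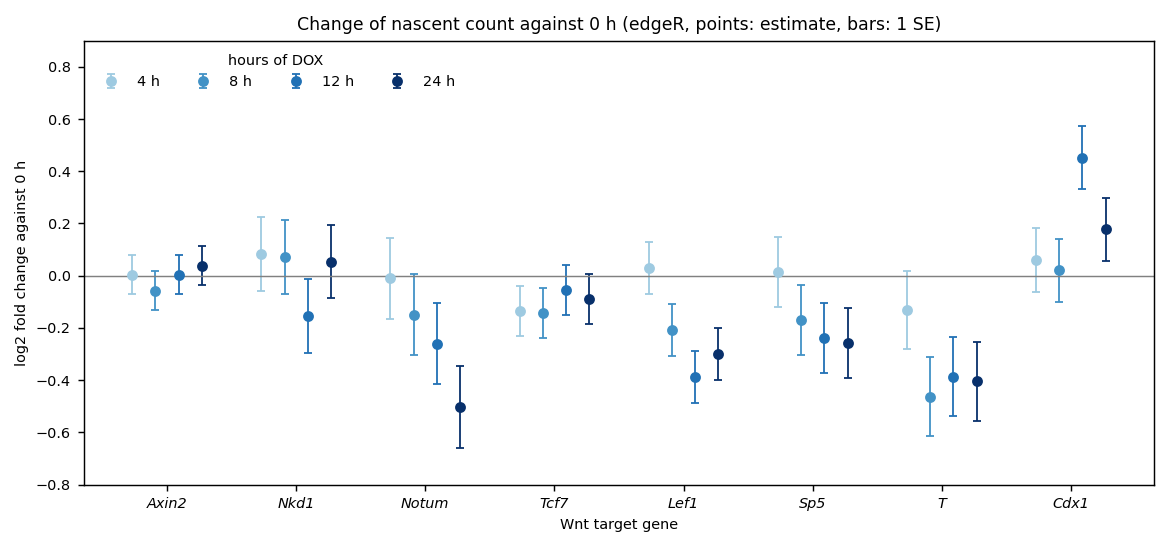
Log2 fold change of the nascent count of each gene against 0 h at 4, 8, 12 and 24 h of DOX. Points are edgeR estimates without the replicate block, bars are 1 standard error, and darker points are later times. Lef1, T and Sp5 sat below 0 from 8 h on, Notum moved down step by step to -0.50 at 24 h, and Cdx1 stood out at 0.45 at 12 h.

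Sp5, T and Cdx1 encode transcription factors. T (brachyury), the T-box factor that drives mesoderm formation, had 8.23 and 7.59 CPM at 0 h, 6.99 and 7.47 after 4 h, 5.60 and 5.88 after 8 h, 5.50 and 6.59 after 12 h, and 6.12 and 5.83 after 24 h. All 8 DOX samples lay below both 0 h samples. At 24 h alone 17.3% of all tested genes did so, and no share was taken for the earlier times or for all times together. The log2 fold change of T was -0.46 at 8 h (SE 0.152, unadjusted p = 0.00828, edgeR adjusted p = 0.801). It was -0.39 at 12 h (adjusted p = 0.332) and stood at -0.41 at 24 h (adjusted p = 0.3005), so none passed, with or without the block. T had 112 to 178 reads in each sample. The 6 other streak and mesoderm markers summed to 2.22 to 2.97 CPM at 0 h and 1.47 to 2.06 at 12 h. At 24 h their sum was 3.36 to 3.66, above 0 h where T lay below. This sum was largely Eomes, with 1.86 ± 0.539 CPM at 0 h and 2.61 ± 0.00636 at 24 h (SD, n = 2). Eomes was the 1 marker of the list that passed the filter, and 0 were called. The part of these markers in the values of T was not tested.

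Sp5, a zinc finger factor that binds GC-rich promoters and represses Wnt targets, had 14.8 and 13.5 CPM at 0 h, 15.9 and 12.7 after 4 h, 12.7 and 12.5 after 8 h, 12.5 and 11.6 after 12 h, and 12.8 and 10.99 after 24 h. From 8 h on, its 6 samples lay below both 0 h samples, an order for which a share of all genes was taken at 24 h alone (17.3%). The log2 fold change at 24 h was -0.26 (SE 0.135, edgeR adjusted p = 0.561), and the linear term gave -0.29 over 24 h (SE 0.123, adjusted p = 0.275). Sp5 is the gene whose promoter window held 5 cores and T the one with 3. Neither gene was called, and no window of Notum or Cdx1 was searched. Whether cores go with a change in count was not tested.

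Cdx1, a homeobox factor of posterior patterning that lies at chr18:61018862-61036199 (-), went the other way. It had 25.4 and 22.1 CPM at 0 h, 26.5 and 23.0 after 4 h, 26.4 and 21.7 after 8 h, 34.4 and 30.5 after 12 h, and 27.6 and 26.2 after 24 h. Both 12 h and both 24 h samples lay above both 0 h samples, as 19.0% of all tested genes did at 24 h, with no share taken at 12 h. The log2 fold change was 0.45 at 12 h (SE 0.120, edgeR adjusted p = 0.113), a fold of 1.37, and 0.45 with the block (SE 0.0878, adjusted p = 0.000801). At 24 h it was 0.18 (SE 0.121, edgeR adjusted p = 0.704) and did not pass with the block (adjusted p = 0.304).

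At 24 h, 4 of the 8 genes (Sp5, T, Notum and Lef1) had both samples below both 0 h samples, where 17.3% of all tested genes did, and 2 (Axin2 and Cdx1) had both above, where 19.0% did. Across the 10 samples, Pearson r of log2 CPM was largest in size for Sp5 and Notum (0.833). Cdx1 and Lef1 (-0.717) and T and Lef1 (0.713) followed, and the other member pairs ran from -0.44 to 0.588. These values describe samples that share their times. The 3 genes most like Notum among 12871 others, by Pearson r over the 10 samples, were Bex1 (0.967), Bex3 (0.966) and Uba1 (0.941), all of them X-linked and all falling in the linear term by log2 changes of -0.84, -0.66 and -0.28 over 24 h. Since Notum was chosen here for its fall, genes picked for likeness to it fall by that choice. Whether Notum and X-linked genes share a cause was not tested.

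The B6 share of reads that cover a strain difference tells how much of each gene's transcription came from the chromosome set that carries the inducible Xist. It differed widely between the genes, far more than between times (the plot of B6 shares). Over 11543 autosomal genes the median B6 share, all samples pooled, was 52.2%, with quartiles of 47.9% and 56.7%. Axin2 at 50.8%, Sp5 at 51.4% and Nkd1 at 50.9% lay near the middle. Tcf7 at 56.7% and Cdx1 at 60.3% leaned to B6, and Lef1 at 43.7% to Cast, each in 10 of 10 samples.

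The allelic reads of Notum and T came mostly from 1 allele, and from opposite ones. Notum had 1053 B6 and 134 Cast reads over all samples, a B6 share of 88.7%, and only 1.30% of autosomal genes had a share as high. In the single samples its share ran from 86.0% (95% Wilson interval 78.4% to 91.2%, 114 allelic reads at 12 h) to 94.0% (87.5% to 97.2%, 100 reads at 24 h). T had a B6 share of 19.6%, and 1.51% of autosomal genes were as low. Its share ran from 10.9% (5.40% to 20.9%, 64 reads at 24 h) to 29.3% (19.2% to 42.0%, 58 reads at 12 h). Notum lay above 50% and T below it in 10 of 10 samples, 0 h samples included. Intervals cover counting error only, and how well reads of each strain map to these genes was not tested.

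**Figure D3:**
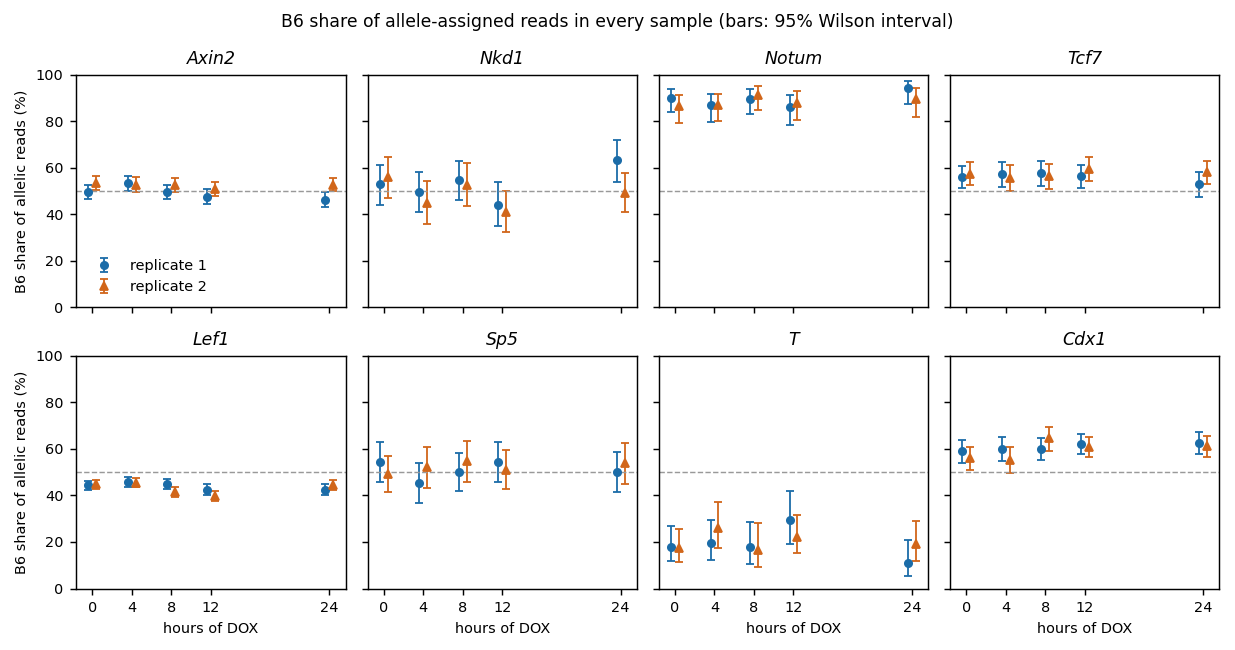
B6 share of allele-assigned reads in percent for each gene and sample against hours of DOX. Circles are replicate 1, triangles replicate 2, bars are 95% Wilson intervals and the dashed line marks 50%. Notum sat between 86.0% and 94.0% and T between 10.9% and 29.3% in all 10 samples, while Axin2, Sp5 and Nkd1 lay around the dashed line.

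For the B6 share, no member was called at any time. In edgeR's test of the B6 to Cast ratio over 11906 genes, 0 of the 8 were called at 4, 8, 12 and 24 h, where 0.361%, 1.66%, 2.15% and 2.64% of all genes were called. At an unadjusted p under 0.05 there were 0, 0, 2 and 0 members, beside 5%, 5.9%, 7.38% and 8.21% of all genes, and DESeq2 called 0 at each time. The 2 were Lef1 and Nkd1 at 12 h. Lef1 went from 44.4% and 44.8% at 0 h to 42.4% and 39.6% at 12 h, a shift of the log2 B6-to-Cast ratio of -0.21 (SE 0.0736, edgeR adjusted p = 0.156). Nkd1 went from 52.8% and 55.8% to 44.1% and 40.9% (log2 change -0.69, SE 0.288, adjusted p = 0.448) and stood at 63.2% and 49.3% at 24 h. For Notum, with 95 to 148 allelic reads in each sample, the 95% interval of the log2 change at 24 h reached from -0.34 to 1.47, and for T, with 58 to 104, from -1.09 to 0.62, so moderate shifts were not detectable at this depth.

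Beyond the 8 genes, 99 other genes of the pathway were listed by role, all of them in the files, and 73 passed the filter. Of these 73, 0 were called at 4 h, 1 at 8 h (1.37%), then 2 at 12 h (2.74%), followed by 3 at 24 h (4.11%), and 4 in the linear term (5.48%), beside the shares of all genes given above. At an unadjusted p under 0.05 there were 1, 6, 13 and 9 of the 73 at the 4 times, beside 2.09%, 4.06%, 11.5% and 10.3% of all genes. The same shares stand beside the unadjusted counts of each list below. DESeq2 and limma-voom called 0 at 4 h. With the block, the 8 h count was 1 of 73 (1.37%), the 12 h count 6 (8.22%) and the 24 h count 8, with 6 (8.22%) in the linear term, beside 0.744%, 4.94%, 5.32% and 5.67% of all genes. Their median log2 fold change was 0.0062, 0.0020, 0.031 and -0.015 at the 4 times. Ctnnb1, which encodes β-catenin itself and was picked out after its values were seen, had 338 ± 2.73 CPM at 0 h and 336 ± 7.92 at 24 h (SD, n = 2), with a 95% interval of the log2 fold change of -0.15 to 0.13.

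Of the 21 genes for Wnt ligands and their export, 9 were tested and 0 called by edgeR at any time, with 0, 0, 1 and 2 at an unadjusted p under 0.05 at the 4 times. Wls, the carrier that brings Wnt proteins to the cell surface, had the highest level per kilobase of the list, 1.15 ± 0.0729 CPM per kb at 0 h, and went from 110 ± 6.96 to 96.3 ± 2.10 CPM at 24 h (SD, n = 2; log2 fold change -0.19, edgeR adjusted p = 0.319). Porcn, the X-linked enzyme that attaches the lipid to Wnt proteins, was listed at 0 in every sample, as Sox2 was. Whether this 0 is a lack of transcription or comes from how reads were counted was not tested.

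All 24 genes of the receptor and R-spondin list were tested, with 1, 2, 6 and 2 at an unadjusted p under 0.05 at the 4 times, and 1 was called lower at 12 and 24 h. The count of pathway genes called at 12 h went from 2 to 1 without any 1 of 7 of the 10 samples. Ror1, a receptor tyrosine kinase for Wnt5a, had 37.7 and 43.6 CPM at 0 h, 26.1 and 30.1 after 12 h, and 21.3 and 24.4 after 24 h. At 12 h its log2 fold change was -0.54 (SE 0.120, edgeR adjusted p = 0.0499), and by 24 h it was -0.83 (SE 0.122, adjusted p = 0.00115), a fold of 0.562. Fzd5, a Frizzled receptor, rose in the linear term, from 22.7 and 22.7 CPM at 0 h to 29.7 and 29.0 after 24 h (log2 change 0.40 over 24 h, SE 0.0913, adjusted p = 0.0139). Fzd10 had the highest level per kilobase, 4.22 ± 0.250 CPM per kb at 0 h, with a log2 fold change of 0.09 at 24 h (adjusted p = 0.931). With the block, Fzd6 and Fzd7 also fell at 12 h, both named after their values were seen.

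Of 15 cytoplasmic transducers, 14 were tested (0, 2, 4 and 2 at an unadjusted p under 0.05) and Amer1 was called lower from 8 h on. Amer1 is an X-linked partner of APC and Axin at the membrane. Its level was 54.2 and 48.9 CPM at 0 h, 48.4 and 44.2 after 4 h, 36.6 and 37.5 after 8 h, 31.4 and 32.0 after 12 h, and 34.3 and 33.3 after 24 h. At 8 h the log2 fold change of Amer1 was -0.47 (SE 0.0873, edgeR adjusted p = 0.0434), and by 24 h it was -0.61 (SE 0.0876, adjusted p = 0.000995). The 8 h call was lost without any 1 of 7 of the 10 samples. Its B6 share fell from 52.8% and 54.7% at 0 h to 22.6% and 25.6% at 24 h (shift of the log2 B6-to-Cast ratio -1.87, edgeR adjusted p = 2.51e-14), while its Cast reads numbered 159 to 195 in every sample. Csnk1a1, a casein kinase of the destruction complex, had the highest mean level per kilobase, 13.0 ± 1.70 CPM per kb at 0 h, ahead of Ctnnb1 with 12.5 ± 0.101 by less than its own SD. Its log2 fold change was 0.28 at 12 h (edgeR adjusted p = 0.163) and 0.23 at 24 h (0.274), and it was called higher at both times with the block.

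All 13 nuclear partners of β-catenin were tested and 0 were called by edgeR at any time, also with the block, with 0, 0, 1 and 0 at an unadjusted p under 0.05. Ctbp2, a corepressor, led the list with 10.2 ± 0.284 CPM per kb at 0 h and had a log2 fold change of 0.05 at 24 h (95% interval -0.11 to 0.21). Of 15 further inhibitors, 7 were tested (0, 1, 1 and 2 at an unadjusted p under 0.05) and 1 rose. Sfrp1, a secreted protein that binds Wnt ligands, had 64.8 and 64.1 CPM at 0 h and 84.9 and 84.6 after 24 h (log2 fold change 0.39, SE 0.0826, edgeR adjusted p = 0.0195). It was also the highest per kilobase of its list, at 1.69 ± 0.0130 CPM per kb at 0 h. With the block, Sfrp4, named after its values were seen, rose as well at 24 h.

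Of 11 other genes known as Wnt targets, 6 were tested and 0 were called by edgeR (0, 1, 0 and 1 at an unadjusted p under 0.05), with a median log2 fold change of -0.31 at 24 h. Ccnd1 (cyclin D1), the highest per kilobase with 3.77 ± 0.120 CPM per kb at 0 h, had a log2 fold change of -0.34 at 24 h (SE 0.112, edgeR adjusted p = 0.199). With the block, Ccnd1 and Cdx2, the second named after its values were seen, were called lower at 24 h. The X-linked homeobox gene Cdx4 had 2 to 9 reads in each sample and did not pass the filter.

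**Figure D4:**
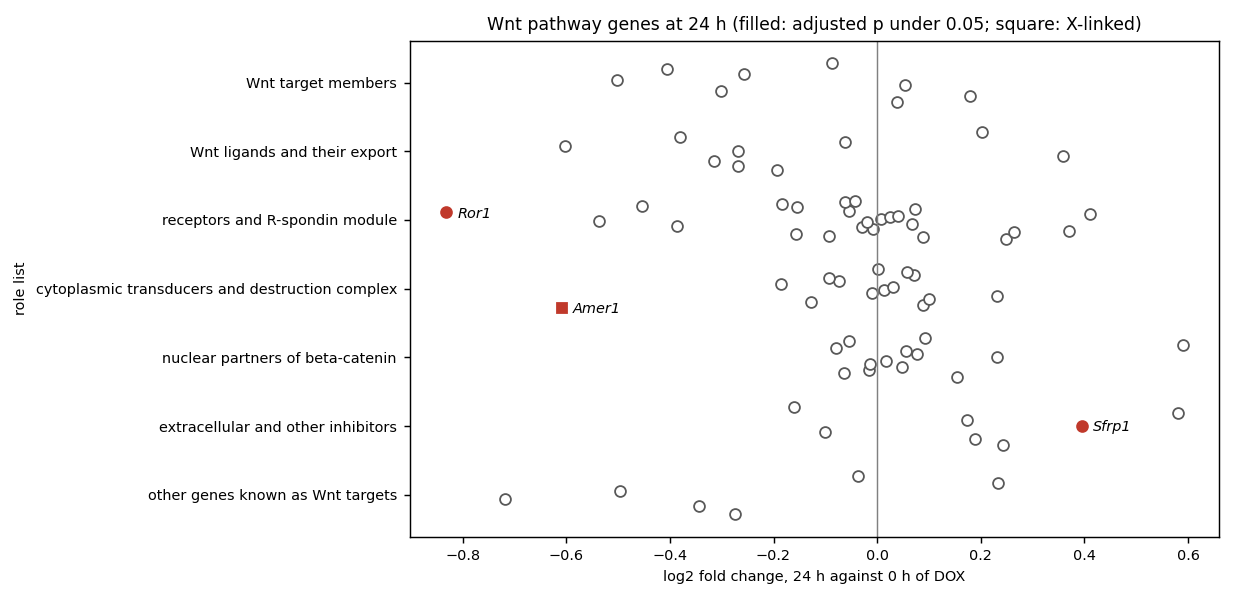
Log2 fold change at 24 h against 0 h of DOX for each tested gene of the pathway, 1 row for the 8 Wnt target genes and 1 for each role list. Filled red symbols had an edgeR adjusted p under 0.05 without the replicate block, and squares are X-linked genes. Ror1 (-0.83), Amer1 (-0.61) and Sfrp1 (0.39) were called, and the 8 Wnt target genes lay between -0.50 and 0.18.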

How the data were processed

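Per the labels and the study's methods, the authors trimmed TT-seq reads with Cutadapt, aligned them with STAR to mm10 masked at strain differences, kept unique alignments, split them by allele with SNPsplit, and counted them over whole genes on the stranded library with featureCounts 1.5.1. The submitters' processing notes also name TopHat2 2.1.0. The study's methods give Tophat for the RNA-seq of Hdac3 mutant and control cells, and STAR for TT-seq. The deposited counts are whole, unnormalized reads per gene (all reads, B6 and Cast). The deposited fraction, the authors' B6 share, was recomputed here from the counts. Spike-ins were not used here, so levels are relative to all counts of a sample.

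Gene starts were read as 0-based. Genes passing filterByExpr were fitted in edgeR 4.0.16 (R 4.3.3) with TMM scaling and time as a factor over all 10 samples, or with hours as a number. Allelic counts were fitted as B6 and Cast columns with an intercept per sample, keeping genes in which no sample had under 10 allelic reads. All tests were two-sided, with Benjamini-Hochberg adjustment over all genes tested and a threshold of 0.05. Fits were run on simulated data with changes larger than those of the members and no replicate effect. How well they find changes of the members' size was not tested. Alternatives were DESeq2 1.42.0, limma 3.58.1 (voom), other scalings and filters, a replicate block and leaving out each sample.

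The replicate numbers come from the labels. Deviations of same-numbered samples from their time's mean correlated at 0.142 to 0.281 in log2 CPM over the 10 pairs of times, so the numbers were taken to pair the samples for total counts. The fits reported first, and those in the plots, leave this pairing out. Only the fits with the block take it in, and they called more members.

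The members and lists were chosen with earlier results of these data known. Of the other pathway genes, those named are the ones called in any comparison, the highest per kilobase in each list at 0 h, and Porcn, Amer1 and Cdx4, and likewise the 3 genes most like a member that changed. Ctnnb1 and genes called with the block alone were named after their values were seen.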

Additional observations from a re-analysis of the deposited data

How the results depend on the processing

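Directions held where p was low, and calls near the threshold did not. Shares of all genes were not taken for other tools, scalings and filters, nor with a sample left out. Counts under those have no background beside them and cannot be read as many or few. All 13 member values with an unadjusted p under 0.05 kept their sign under every alternative. Of the other 29 total-count and 30 allelic values, 15 and 19 changed sign under at least 1 alternative, with adjusted p of at least 0.425. The count of members called at 12 h, 0 as reported, was 1 with DESeq2, 2 with no filter on low counts, 2 with the replicate block, 2 with the block and adjustment outside the X chromosome, and 0 to 1 when samples were left out in turn. At 24 h it was 0 as reported, 2 with the block, and 2 with the block and adjustment outside the X chromosome. In the linear term it was 1 as reported, 2 with no filter, 2 with the block, 0 with adjustment outside the X chromosome, 2 with both, and 0 to 1 when samples were left out. Without replicate 2 at 24 h, the 1 member called was Lef1 (adjusted p = 0.00661) and not Notum.

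Of the other pathway genes, the 1 called at 8 h became 0 with adjustment outside the X chromosome, with or without the block, since it is X-linked, and 0 to 1 when samples were left out: Amer1 was lost without any single 8, 12 or 24 h sample or replicate 1 at 0 h. The 2 at 12 h became 1 with RLE size factors, 1 with limma-voom, 6 with the block, 0 with adjustment outside the X chromosome, 5 with both, and 1 to 2 when samples were left out. The 3 at 24 h became 8 with the block and 1 with adjustment outside the X chromosome. Where not stated, the cause was not tested.

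In the allelic fit same-numbered samples shared only a number (correlations of 0.000396 to 0.0324), and the replicate block, like each other alternative, left 0 members called. With 2 samples at each time, leaving one out leaves a lone sample that is assumed to vary like the others. Depth limits T, with 112 to 178 reads in each sample, and the allelic shares of T and Notum, with 58 to 104 and 95 to 148 allelic reads.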
